A study of Mus musculus with 10 samples.

Results

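Entry of glucose into liver cells and its first phosphorylation were followed through 9 genes with these roles. They were 4 facilitative sugar transporters (Slc2a1, Slc2a2, Slc2a8 and Slc2a9), 4 hexokinases (Hk1, Hk2, Hk3 and Hkdc1) and Gckr, the glucokinase regulator, out of 53392 genes in the deposited table. Livers came from mice on a C57BL/6 background at 24 weeks, 5 Fbp1-deleted and 5 wild type (WT). The treatment notes call the first group hepatic FBP1-deficient. The sources used here do not give the promoter or agent that removed the gene, the feeding state or the hour of collection. Fbp1 encodes the gluconeogenic enzyme that removes a phosphate from fructose bisphosphate, and the study asked how its loss alters the liver transcriptome.

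Facilitative transporters of the Slc2a (GLUT) family let hexoses cross membranes down their gradient, in either direction. In hepatocytes Slc2a2 (GLUT2) is the main carrier of glucose. Hexokinases then trap glucose as glucose 6-phosphate. Adult hepatocytes rely mostly on glucokinase, which Gckr binds and holds inactive in the nucleus when glucose is low, while Hk1, Hk2 and Hk3 are high-affinity enzymes best known from other tissues and cells.

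Libraries held between 17778395 and 23894812 estimated counts. Levels are counts-per-million (CPM) with trimmed mean (TMM) scaling, and errors are SD over 5 livers unless named otherwise. Changes are log2 values, Fbp1-deleted minus WT, from edgeR's quasi-likelihood fit, with its standard error (SE). A change passed the test when the p adjusted over all 15392 genes tested was under 0.05. The design text calls the replicates biological. Fbp1 averaged 9.39 ± 2.38 CPM in Fbp1-deleted livers and 909.6 ± 119 CPM in WT livers (n = 5 each), a change of -6.60 (SE 0.19, adjusted p = 6.13e-11, edgeR). All 7 hepatocyte markers were present, with a summed level between 85184 and 96217 CPM in Fbp1-deleted livers and between 54353 and 95933 CPM in WT livers. Among them Tat and Cps1 rose and Cyp2e1 fell (edgeR). Xist stood between 342 and 696 CPM over all 10 livers, and the 4 Y-linked genes listed held at most 1.77 CPM each. On the first principal component of the 500 most variable genes, which held 37.8% of their variance, Fbp1-deleted replicate 8 scored 9.5, nearest to WT, against 20.9 to 28.1 in the other Fbp1-deleted livers and -27.5 to -11.0 in WT livers. Because these are whole livers, fewer cells of a type and less RNA per cell cannot be told apart.

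Among the 8 genes with enough counts to test, Slc2a2 rose in Fbp1-deleted livers, while Slc2a9, Slc2a1 and Hk3 fell. The remaining 4 (Slc2a8, Hk1, Hk2 and Gckr) did not pass, and Hkdc1 was too scarce to test. Of all genes tested, 20.6% passed, 10.6% higher and 10% lower. The median change of the 8 was -0.43, against 0.01 over all genes tested. The genes were not chosen independently of these data, so these counts and medians are descriptions and carry no test.

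**Figure D1:**
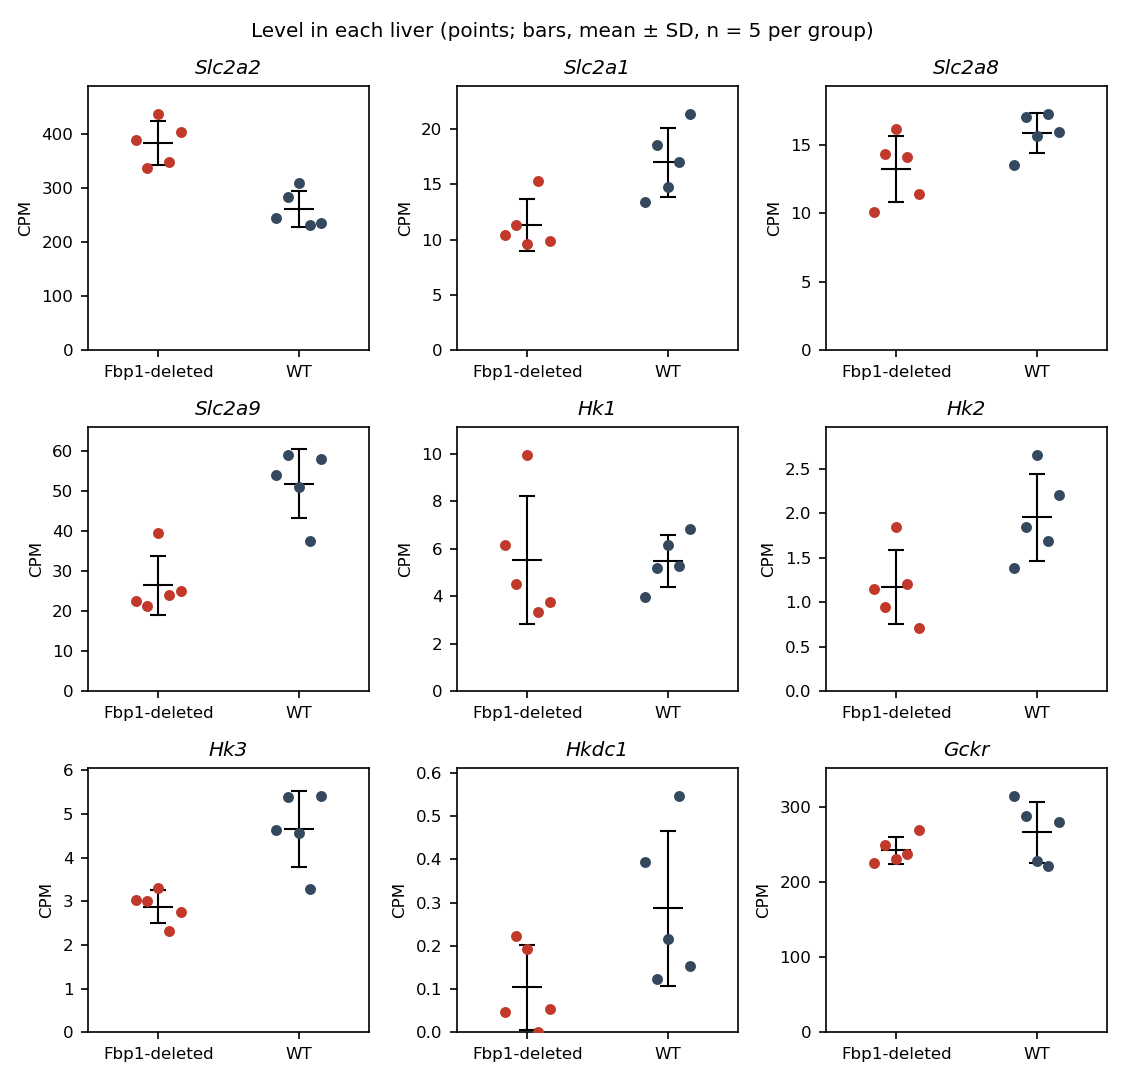
Level of each of the 9 genes (vertical axes, CPM, from 0) in each liver, Fbp1-deleted left and WT right; points are livers and bars the mean ± SD. All 5 Fbp1-deleted livers lie above all WT livers for Slc2a2, while the groups overlap for each of the other 8 genes.

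Slc2a2 is annotated on the plus strand of chromosome 3, from 28697903 to 28731359 (GRCm38), as a protein-coding gene. Fbp1-deleted replicates 6 to 10 held 388, 336, 435, 348 and 403 CPM, and WT replicates 1 to 5 held 245, 284, 309, 231 and 236 CPM. Every Fbp1-deleted liver lay above every WT liver, an arrangement found in the upward direction in 6.57% of all genes tested. The mean was 382 ± 40.7 CPM in Fbp1-deleted livers and 261 ± 33.9 CPM in WT livers (n = 5 each). The change was 0.55 (SE 0.11, adjusted p = 0.00459, edgeR), or 1.47-fold. It stayed positive and passed under all 18 alternative fits, from 0.47 to 0.62.

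Slc2a9 (GLUT9), which carries urate and in mice takes it up into the liver, had the largest fall among the 8 genes tested. It spans 38349273 to 38503143 on the minus strand of chromosome 5. Its level was 22.6, 21.3, 39.5, 24.0 and 25.0 CPM in Fbp1-deleted replicates 6 to 10, against 54.0, 59.0, 51.0, 37.6 and 58.0 CPM in WT replicates 1 to 5. The groups overlapped by a single pair, since Fbp1-deleted replicate 8 stood above WT replicate 4. The mean was 26.5 ± 7.40 CPM in Fbp1-deleted livers and 51.9 ± 8.63 CPM in WT livers (n = 5 each). The change was -0.97 (SE 0.17, adjusted p = 0.00218, edgeR), which left 51.0% of the WT level. Without Fbp1-deleted replicate 8 the change was -1.16 (adjusted p = 5.17e-05, edgeR).

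Slc2a1 (GLUT1), the basal glucose transporter of most tissues, also fell. It lies on the plus strand of chromosome 4, from 119108711 to 119137983. The livers of Fbp1-deleted replicates 6 to 10 held 10.4, 11.3, 9.60, 15.3 and 9.86 CPM, and WT replicates 1 to 5 held 13.4, 18.5, 14.7, 17.0 and 21.3 CPM. Fbp1-deleted replicate 9 stood above WT replicates 1 and 3, and the other 4 Fbp1-deleted livers lay below all WT livers. The mean was 11.3 ± 2.33 CPM in Fbp1-deleted livers and 17.0 ± 3.11 CPM in WT livers (n = 5 each). The change was -0.59 (SE 0.16, adjusted p = 0.0182, edgeR). The call was narrowly lost without Fbp1-deleted replicate 6 (-0.56, adjusted p = 0.0515, edgeR).

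Slc2a8 (GLUT8), a transporter held mostly on internal membranes, had 10.1 to 16.1 CPM in Fbp1-deleted livers and 13.5 to 17.2 CPM in WT livers. It spans 32972990 to 32982083 on chromosome 2, minus strand. Its change of -0.26 (SE 0.14) did not pass (adjusted p = 0.189, edgeR), and the 95% interval of the difference ran from -0.55 to 0.03.

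To compare genes with each other, levels were divided by merged exon length. On this scale of CPM per kilobase (kb) Slc2a2 led the 4 transporters in every liver, with 66.4 ± 7.08 in Fbp1-deleted livers and 45.3 ± 5.88 in WT livers. Slc2a9 came next in WT livers at 10.2 ± 1.70, above Slc2a8 at 4.94 ± 0.457 and Slc2a1 at 4.84 ± 0.887. In Fbp1-deleted livers Slc2a9 stood at 5.21 ± 1.46, Slc2a8 at 4.12 ± 0.760 and Slc2a1 at 3.22 ± 0.663, and these ranges overlapped. Slc2a8 and Slc2a1 did not differ beyond their spread in WT livers.

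Slc2a2 took a larger share of the per-length sum of Slc2a1, Slc2a2, Slc2a8 and Slc2a9 in Fbp1-deleted livers. Other hexose transporters, among them Slc2a4 and Slc50a1, are not in that sum. The share of Slc2a2 lay between 81.8% and 86.4% in Fbp1-deleted livers and between 64.6% and 73.8% in WT livers. The share of Slc2a9 lay between 5.70% and 8.51% in Fbp1-deleted livers and between 12.8% and 18% in WT livers. The sum itself was 78.9 ± 8.02 CPM per kb in Fbp1-deleted livers and 65.3 ± 6.52 CPM per kb in WT livers. These shares follow from the single-gene changes above and were given no test.

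**Figure D2:**
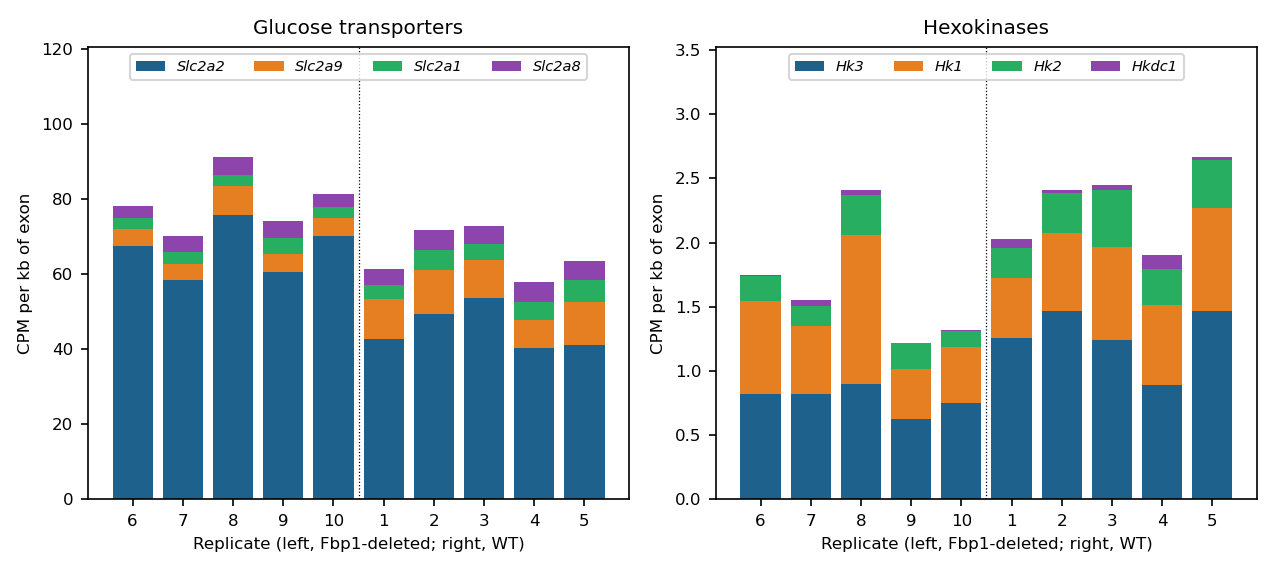
Summed level of the 4 transporters (left panel) and the 4 hexokinases (right panel) in CPM per kb of exon, one bar per liver, with Fbp1-deleted replicates left of the dotted line and WT replicates right of it. Slc2a2 makes up 81.8% to 86.4% of the transporter bars in Fbp1-deleted livers and 64.6% to 73.8% in WT livers.

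The upstream sequences of the genes that changed are shown because Slc2a2 moved against Slc2a1 and Hk3. They are RefSeq windows of build GRCm38.p6, read 5′ to 3′ on the gene's strand and ending at the base before its first annotated exon. Each holds up to 250 bases before the RefSeq start, and capitals mark matches to a searched motif.
Slc2a2 (chr3:28697653-28697902, plus strand): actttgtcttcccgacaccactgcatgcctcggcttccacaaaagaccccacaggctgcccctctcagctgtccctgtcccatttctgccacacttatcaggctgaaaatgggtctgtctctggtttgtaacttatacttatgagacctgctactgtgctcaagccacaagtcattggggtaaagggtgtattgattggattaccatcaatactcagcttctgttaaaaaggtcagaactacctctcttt
Slc2a1 (chr4:119108495-119108710, plus strand): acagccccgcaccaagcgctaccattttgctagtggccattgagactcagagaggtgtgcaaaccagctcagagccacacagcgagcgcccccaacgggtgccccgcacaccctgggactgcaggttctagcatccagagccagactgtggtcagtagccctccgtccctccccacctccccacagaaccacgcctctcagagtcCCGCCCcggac
Hk3 (chr13:55021386-55021635, minus strand): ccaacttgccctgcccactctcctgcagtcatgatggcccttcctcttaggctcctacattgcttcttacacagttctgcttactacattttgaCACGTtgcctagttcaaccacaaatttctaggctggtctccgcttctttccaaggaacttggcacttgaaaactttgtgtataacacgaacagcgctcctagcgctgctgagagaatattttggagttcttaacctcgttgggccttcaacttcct

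Motifs were searched on both strands of the full 250 bases. They were the E box CACGTG, the cAMP response element TGACGTCA, the forkhead site GTAAACA, the HNF1 half-site GTTAAT, the hypoxia element core ACGTG, which every E box also holds, and the GC box GGGCGG. Over all 32817 RefSeq windows they occurred in 6.02%, 1.55%, 3.16%, 6.44%, 16.6% and 32.7%, in that order. The Slc2a2 window held none of these letters. The Slc2a1 window held 2 GC boxes and 1 hypoxia core, of which 1 GC box lies in the bases printed, and the Hk3 window held 1 hypoxia core. The window of Slc2a9, which also fell, held none of the motifs, nor did those of Slc2a8 and Hkdc1 or either window of Hk1. The Hk2 window held 2 hypoxia cores and 3 GC boxes and the Gckr window 1 HNF1 half-site, and neither gene passed the test. Base composition was 47.2% G or C in the Slc2a2 and Hk3 windows, 66.4% in the Slc2a1 window, 69.6% in the Hk2 window and 48.8% in the Slc2a9 window, with a median of 52.4% over all windows. The RefSeq start of Slc2a9, where its window ends, lies 19758 bases inside the span annotated by GENCODE, and that window is not shown.

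Hexokinase transcripts were scarce in all livers. Hk3, known from cells of the myeloid lineage, fell. It spans 55005985 to 55021385 on chromosome 13, minus strand. There were 3.02, 3.01, 3.30, 2.31 and 2.76 CPM in Fbp1-deleted replicates 6 to 10, and WT replicates 1 to 5 held 4.62, 5.39, 4.55, 3.28 and 5.40 CPM. Only Fbp1-deleted replicate 8 reached the lowest WT liver, replicate 4. The mean was 2.88 ± 0.372 CPM in Fbp1-deleted livers and 4.65 ± 0.867 CPM in WT livers (n = 5 each). The change was -0.69 (SE 0.19, adjusted p = 0.0186, edgeR), and the libraries held 38 to 132 counts each. It missed the threshold without WT replicate 2 (-0.63, adjusted p = 0.0553, edgeR) and without Fbp1-deleted replicate 9 (-0.62, adjusted p = 0.0511, edgeR).

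The summed levels of marker lists of other cells are given beside Hk3, and they did not all run one way. Of all genes tested, 10.6% rose and 10% fell at an adjusted p under 0.05 (edgeR). With DESeq2 1967 of the 15392 genes rose and 1817 fell, and with limma-voom 1554 rose and 1560 fell. No share over all genes was taken at an unadjusted p, so the unadjusted counts below have no background to be set against. Of 7 markers of Kupffer cells and macrophages 4 fell with edgeR (Csf1r, Vsig4, Timd4 and Cd5l). At an unadjusted p under 0.05, 6 of the 7 were lower in edgeR and all 7 in DESeq2 and limma-voom. The 7 summed to 165 to 238 CPM in Fbp1-deleted livers and 217 to 304 CPM in WT livers. None of these 7 genes was at 0 in all livers. The 6 neutrophil markers summed to 3.57 to 10.6 CPM in Fbp1-deleted livers and 7.76 to 14 CPM in WT livers. Of the 3 that could be tested 0 passed with edgeR and limma-voom and 1 was lower with DESeq2. At an unadjusted p under 0.05, 1 was lower in edgeR, 1 in DESeq2 and 3 in limma-voom. The 6 endothelial markers summed to 132 to 215 CPM in Fbp1-deleted livers and 189 to 219 CPM in WT livers. Of these, 1 (Lyve1) rose and 0 fell with edgeR and limma-voom, while 1 was lower with DESeq2, and 3 were lower at an unadjusted p under 0.05 in edgeR. The 5 stellate cell markers had the higher range in Fbp1-deleted livers, at 176 to 243 CPM, against 136 to 202 CPM in WT livers. Of these, 1 rose with edgeR and limma-voom and 2 with DESeq2, and 2 were higher at an unadjusted p under 0.05 in each tool. The 5 cholangiocyte markers summed to 12.9 to 22.2 CPM in Fbp1-deleted livers and 16.5 to 28.9 CPM in WT livers. Of these, 0 passed with edgeR and DESeq2 and 1 rose with limma-voom. At an unadjusted p under 0.05, 1 was higher and 2 were lower in each tool. The part of these cells in the change of Hk3, or in that of Slc2a1, was not tested.

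**Figure D3:**
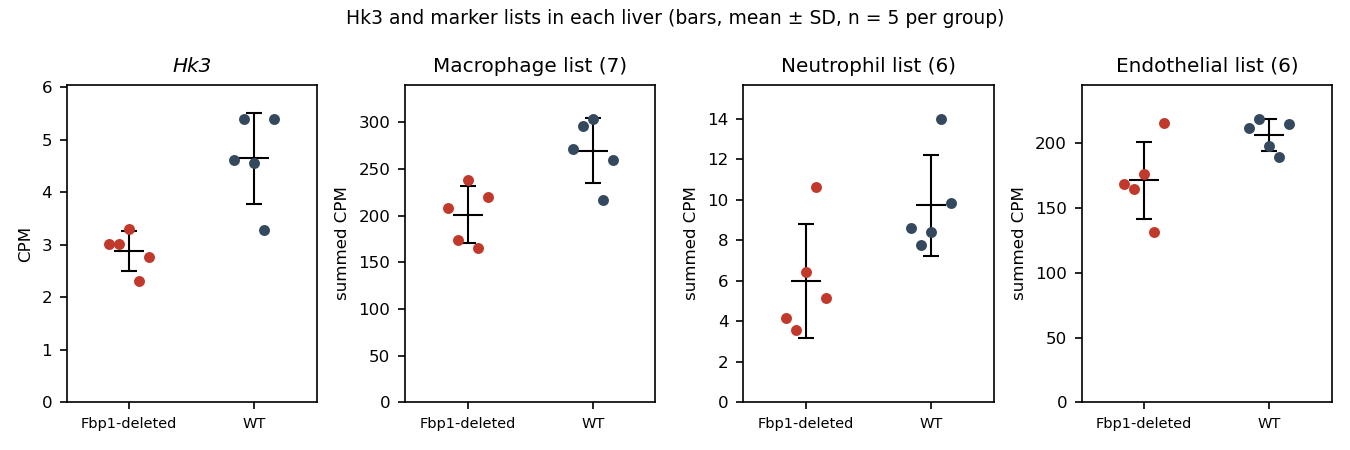
Hk3 (CPM) and the summed CPM of the macrophage, neutrophil and endothelial marker lists in each liver, Fbp1-deleted left and WT right in each panel; bars are the mean ± SD. Hk3 lies between 2.31 and 3.30 CPM in Fbp1-deleted livers and between 3.28 and 5.40 CPM in WT livers, and the macrophage sum between 165 and 238 CPM in Fbp1-deleted livers and between 217 and 304 CPM in WT livers.

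Hk2, the hexokinase of muscle and fat that insulin induces, did not pass with all 10 livers. It spans 82725025 to 82774454 on chromosome 6, minus strand. Fbp1-deleted replicates 6 to 10 held 1.15, 0.947, 1.84, 1.21 and 0.716 CPM, and WT replicates 1 to 5 held 1.38, 1.84, 2.65, 1.69 and 2.21 CPM. Replicate 8 was again the Fbp1-deleted liver inside the WT range, and the other 4 lay below it. The change was -0.73 (SE 0.30, adjusted p = 0.098, edgeR), with a 95% interval from -1.36 to -0.09. Without Fbp1-deleted replicate 8 it was -0.95 and passed (adjusted p = 0.0284, edgeR). The depth was 13 to 49 counts per library.

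Hk1, the hexokinase of brain and red blood cells, showed no direction. It spans 62268855 to 62379908 on chromosome 10, minus strand. Levels were 6.18, 4.51, 9.94, 3.34 and 3.75 CPM in Fbp1-deleted replicates 6 to 10, and WT replicates 1 to 5 held 3.98, 5.19, 6.17, 5.30 and 6.84 CPM. Replicate 8 was the highest of all 10 livers and replicate 9 the lowest. The change was 0.02 (SE 0.27, adjusted p = 0.971, edgeR), with a 95% interval from -0.57 to 0.61, and it was negative with upper quartile scaling, with library totals and with limma-voom. Without Fbp1-deleted replicate 8 it was -0.30 (adjusted p = 0.34, edgeR). Red cell markers (5 genes) summed to 130 to 352 CPM in Fbp1-deleted livers and 192 to 347 CPM in WT livers. The coefficient of variation of Hk1 was 48.5% in Fbp1-deleted livers and 19.7% in WT livers.

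Hkdc1, a further hexokinase gene, neighbours Hk1 on the same strand of chromosome 10, at 62383137 to 62422491, with 3.2 kb between their spans. It gathered 10 counts over the 5 Fbp1-deleted livers and 28 over the 5 WT livers. Single libraries held 0 to 4 counts in the Fbp1-deleted group and 3 to 10 in WT. The count of 0 in Fbp1-deleted replicate 9 allows up to 0.182 CPM at 3 counts, which covers counting error only. The filter on low counts removed the gene, and in the fit without a filter its change of -1.38 did not pass (adjusted p = 0.322, edgeR). Transcripts of Hkdc1 and Hk1 share no word of 31 bases in the annotation, nor do any others of the 9 genes.

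On the per-length scale Hk3 and Hk1 led the 4 hexokinases. Hk3 stood at 0.781 ± 0.101 CPM per kb in Fbp1-deleted livers and 1.26 ± 0.236 CPM per kb in WT livers, and Hk1 at 0.650 ± 0.315 CPM per kb in Fbp1-deleted livers and 0.644 ± 0.127 CPM per kb in WT livers. In Fbp1-deleted livers these ranges overlapped. The order of Hk3 and Hk1 rests on the merged exon lengths, 3682 bases for Hk3 and 8532 for Hk1. Before division by length, mean levels were higher for Hk1. They were 5.54 CPM for Hk1 and 2.88 for Hk3 in Fbp1-deleted livers, and 5.50 and 4.65 CPM in WT livers. Hk2 followed at 0.197 ± 0.0706 CPM per kb in Fbp1-deleted livers and 0.328 ± 0.0825 CPM per kb in WT livers. The sum of the 4 was 1.65 ± 0.472 CPM per kb in Fbp1-deleted livers and 2.29 ± 0.318 CPM per kb in WT livers, far below that of the transporters.

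Gckr did not pass, with an interval that holds small changes of either sign. The gene lies on the plus strand of chromosome 5, from 31297443 to 31327314. Fbp1-deleted replicates 6 to 10 held 225, 249, 230.0, 237 and 269 CPM, and WT replicates 1 to 5 held 314, 288, 227, 221 and 280 CPM. All 5 Fbp1-deleted livers lay inside the WT range. The mean was 242 ± 17.6 CPM in Fbp1-deleted livers and 266 ± 40.2 CPM in WT livers (n = 5 each). The change was -0.14 (SE 0.11, adjusted p = 0.423, edgeR), and its 95% interval ran from -0.38 to 0.11. Per length Gckr reached 55.8 ± 4.07 CPM per kb in Fbp1-deleted livers and 61.4 ± 9.28 CPM per kb in WT livers. On average Slc2a2 stood above Gckr on that scale in Fbp1-deleted livers and below it in WT livers.

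**Figure D4:**
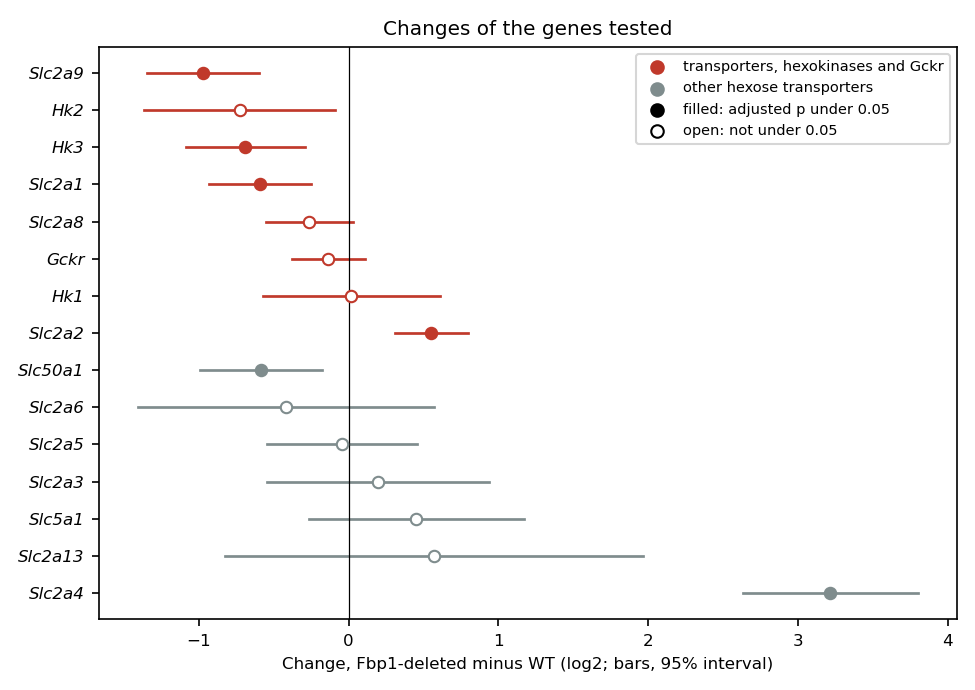
Change of each gene tested (horizontal axis, log2, Fbp1-deleted minus WT; bars, 95% interval), with the 8 tested genes in red and 7 other hexose transporters in grey; filled points passed the test. Slc2a2 at 0.55 is the only filled red point right of 0, and Slc2a4 at 3.22 lies farthest right.

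Fbp1-deleted replicate 8 was the highest of its group for 6 of the 9 genes (Hk1, Hk2, Hk3, Slc2a2, Slc2a8 and Slc2a9). It did not lie toward WT for all of them, since its Slc2a2 level was the farthest of its group from WT livers. For Slc2a1 it was the lowest of its group, at 9.60 CPM. No other Fbp1-deleted liver was highest for more than 1 gene, and in WT livers the count was 1 to 3. Its macrophage sum of 238 CPM was also the highest among the Fbp1-deleted livers, and its Fbp1 level of 13.4 CPM was the highest of that group.

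Among 16 other hexose transporters, 7 had enough counts to test, of which 1 rose and 1 fell (median 0.19, against 0.01 over all genes tested). Of all genes tested, 10.6% rose and 10% fell. Slc2a4 (GLUT4), the insulin-responsive transporter of muscle and fat, rose. Fbp1-deleted replicates 6 to 10 held 7.76, 10.7, 10.8, 6.07 and 12.9 CPM, and WT replicates 1 to 5 held 1.23, 1.27, 1.03, 1.15 and 0.463 CPM. The groups did not overlap, with all Fbp1-deleted livers higher, as in 6.57% of all genes tested. The change was 3.22 (SE 0.27, adjusted p = 9e-06, edgeR), or 9.29-fold, and its range over the 18 alternative fits was 3.03 to 3.35. Per length Slc2a4 reached 2.77 ± 0.778 CPM per kb in Fbp1-deleted livers, where Slc2a1 stood at 3.22 ± 0.663, and 0.295 ± 0.0944 CPM per kb in WT livers, where Slc2a1 stood at 4.84 ± 0.887. Markers of skeletal muscle summed to at most 0.582 CPM in Fbp1-deleted livers and 0.935 CPM in WT livers, with Myh4 at 0 in all 10. Those of adipocytes summed to at most 0.669 CPM in Fbp1-deleted livers and 0.443 CPM in WT livers, with Lep at 0 in all 10. Slc50a1, a sugar transporter of the SWEET family, fell, with a change of -0.59 (SE 0.19, adjusted p = 0.0412 by edgeR), a call lost under 8 of 18 alternatives.

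**Figure D5:**
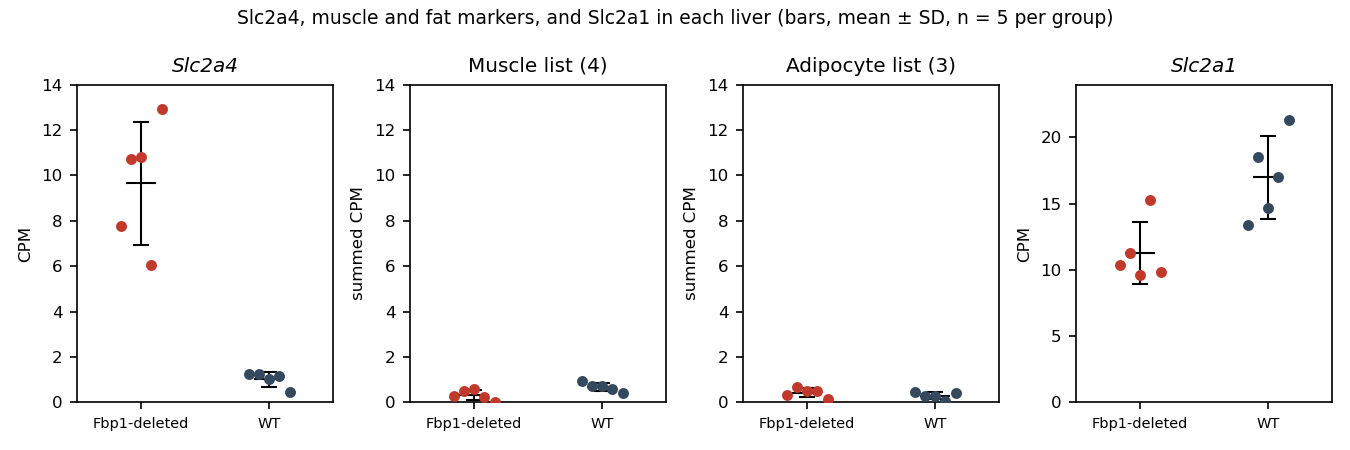
Slc2a4 (CPM), the summed CPM of 4 skeletal muscle and 3 adipocyte markers, and Slc2a1 (CPM) in each liver, Fbp1-deleted left and WT right; bars are the mean ± SD, and the first 3 panels share one vertical scale. Slc2a4 lies between 6.07 and 12.9 CPM in Fbp1-deleted livers and at most 1.27 CPM in WT livers, while both marker sums stay below 1 CPM.

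Over all genes tested, 10.6% rose and 10% fell (median 0.01). Of 17 other sugar kinases and enzymes that make or use glucose 6-phosphate, 6 rose and 2 fell (median 0.13). Those with the smallest p were Gpi1, which turns glucose 6-phosphate into fructose 6-phosphate, with a change of 1.64 (SE 0.12), G6pc, the catalytic subunit of glucose 6-phosphatase, with 2.81 (SE 0.22), and Slc37a4, the carrier that brings glucose 6-phosphate to it, with 0.80 (SE 0.12). Their adjusted p lay between 2.36e-06 and 0.000626 (edgeR). The 2 that fell were Nagk, the N-acetylglucosamine kinase, by 0.53 on the log2 scale (SE 0.14), and the phosphoglucomutase Pgm1 by 0.30 (SE 0.10), whose call was lost under 8 of 18 alternatives. Exons of Gpi1, Pgm1 and Txnip overlap another annotated gene, and the library does not mark strand.

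Of 20 regulators and partners of transporters and hexokinases, 3 rose and 2 fell (median 0.04). The shares over all genes tested were 10.6% higher and 10% lower (median 0.01). Txnip, which promotes the removal of glucose transporters from the cell surface, rose by 1.49 (SE 0.18), and the coactivator Ppargc1a by 2.67 (SE 0.30). Vdac3, a channel of the mitochondrial outer membrane, rose by 0.29 (SE 0.09), a call lost under 9 of 18 alternatives. The liver transcription factor Foxa2 fell by 2.12 on the log2 scale (SE 0.23). Foxa2 held 4.73 to 12.1 CPM in Fbp1-deleted livers and 27 to 43.5 CPM in WT livers, without overlap, as did 6.89% of all genes tested in that direction. For these 4 genes the adjusted p ranged from 0.000125 to 0.0268 (edgeR).

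The genes whose levels followed those of these genes most closely within the groups were also sought, over 10 livers after subtracting each group's mean of log2 CPM, among 11137 genes. For Slc2a2 they were Csf1r, Madd and Ift81, with Pearson r of 0.907, 0.893 and 0.893. For Hk3, the hexokinase with the highest mean level per length, they were Zfp414, Bmf and Sept9, at 0.962, 0.937 and 0.932. For Gckr they were Fdx1, Txn1 and Mgst3, at 0.960, 0.955 and 0.955. The points share libraries and scaling, and these values describe a choice of the highest among many genes, with no test.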

How the data were processed

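RNA of 10 livers, 5 Fbp1-deleted and 5 WT, was sequenced from mRNA libraries that do not keep the strand, per the labels' protocols. The deposited values are estimated counts for each gene, made by the authors with Salmon on GRCm38, per the submitters' processing notes; how they were summed to genes is not stated there. All values were whole, so rounding changed nothing. Gene names, positions and merged exon lengths came from GENCODE M21, which matched 52175 of 53392 identifiers with their version and 1180 without; 37 did not match. Genes were tested in R 4.3.3 with edgeR 4.0.16 (filterByExpr, TMM, robust quasi-likelihood F test of the group, no covariate), adjusted by Benjamini-Hochberg. No libraries were duplicates: within a group, chi-square per degree of freedom was at least 14.2. Intervals are 95%. Alternatives were RLE, upper quartile and no scaling factors, no filter, a filter of 1 CPM in 5 libraries, no robust shrinkage, DESeq2 1.42.0, limma-voom (limma 3.58.1) and each library left out. The fit was tested on simulated data. Shared words of 31 bases and motifs were searched in Python 3.11.15. Pathway genes named are those with the 3 smallest adjusted p per list and direction among the genes called. The 9 genes and the lists were chosen with earlier results of these data known. Exons of Hk1, Slc2a1 and Hk3 overlap Hk1os, Gm12868 and Unc5a over 157, 105 and 34 bases; these neighbours held at most 3, 3 and 73 counts in a library. One gene of the pathway lists is included in their counts and is not reported here.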

Additional observations from a re-analysis of the deposited data

Results flagged for a closer look

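Slc2a9 in Fbp1-deleted replicate 8 stood at 39.5 CPM, apart from the next highest of its group at 25.0 CPM. The gap was 0.798 of the group's range, against a limit of 0.710 for 5 samples. Of 18 groups checked for the 9 genes this was the only one past the limit, and chance flags about 1 in 20.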

How the results depend on the processing

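Slc2a2, Slc2a9, Slc2a8 and Gckr kept their direction and their side of the threshold under all 18 alternatives, with changes of 0.47 to 0.62, -1.16 to -0.90, -0.35 to -0.18 and -0.23 to -0.07. Hk3 lost its call under 2 and Slc2a1 under 1, all with a library left out, and Hk2 gained one without Fbp1-deleted replicate 8. Hk1 turned negative with upper quartile factors (-0.04), library totals (-0.057) and limma-voom (-0.043), and with libraries left out it ran from -0.30 to 0.16; the cause was not tested. With a library left out, the genes called numbered 1066 to 2060 higher and 1019 to 1858 lower, against 1636 and 1542, with the lowest counts without Fbp1-deleted replicate 9 (higher) and replicate 6 (lower; 1086 higher). The lower calls in the 3 pathway lists numbered 3 to 6, against 5, and were 3 when any of Fbp1-deleted replicates 6, 7, 9 and 10 or WT replicates 2, 3 and 5 was dropped. Genes that rose were 51.5% of calls with TMM, 40.3% with upper quartile factors and 37.7% with library totals. No paired analysis was possible because the groups share no replicate numbers. The hexokinases held 0 to 205 counts per library, which limits what could be seen for them.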
